A study of Drosophila melanogaster with 26 samples.

Results

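Whole ovaries with a germline knockdown of NSL2 were compared with ovaries carrying a control knockdown of *white*. The comparison uses all 6 libraries of the RNA table made for these groups, 3 NSL2 RNAi and 3 *white* RNAi, out of 12 ovary RNA libraries in the 3 RNA tables of the series. The NSL2 RNAi flies carried the hairpin TRiP.HMJ22113 at the attP40 landing site in a y1 v1 background, and the *white* RNAi flies carried the hairpin TRiP.GL00094 at attP2 in a background of y1, v1 and an allele of sc. Both hairpin lines were crossed to the same *nanos*-GAL4 driver stock, which also carries w1118 and a UAS-Dcr-2 transgene. The offspring of both groups were kept on food with added yeast for several days, and the ovaries of several flies were pooled for each library. *nanos*-GAL4 acts in germ cells, so the hairpin was not driven in the somatic follicle cells of the same ovaries. Each hairpin is 1 fly line, so an effect of the knockdown and a difference between the lines cannot be told apart. Of the 15342 annotated genes in the table, 8047 had a mean of at least 10 normalized reads over the 6 libraries and were tested.

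The NSL complex is a set of nuclear proteins that binds promoters together with the acetyltransferase MOF and supports transcription of widely expressed genes. NSL2 is encoded by *dgt1*. An ovary holds strings of egg chambers in which nurse cells load the oocyte with RNA, while the follicle cells around them make yolk and eggshell proteins, produce and answer the steroid hormone ecdysone, and finally rupture to release the egg. Genes of eggshell and yolk were set aside here (44 of the genes that rose), and the description concerns the functions of the other changed genes.

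The libraries held 20820820 to 23021900 assigned reads for *white* RNAi and 14868717 to 20911687 for NSL2 RNAi. *dgt1* read 1901, 1872 and 1638 normalized reads (reads divided by the size factor of the library) in the *white* RNAi libraries and 1128, 1317 and 1277 in the NSL2 RNAi libraries. All NSL2 RNAi values were below all *white* RNAi values, and the log2 fold change (log2FC, NSL2 RNAi minus *white* RNAi on log2 of the value + 1) was -0.54 with a standard error (SE) of 0.09 and an adjusted p of 0.0036 by limma. *w*, the target of the control hairpin, read 181 to 294 in *white* RNAi and 2449 to 2680 in NSL2 RNAi. Germline markers were present at high level: *vas*, *nos*, *osk*, *bcd*, *orb* and *grk* summed to 73359 to 74277 in *white* RNAi and to 60423 to 64894 in NSL2 RNAi, and 0 of the 6 were called, though 4 were lower without the fold limit used below. The follicle cell markers *tj*, *Fas3*, *slbo*, *eya*, *cas*, *mirr* and *br* summed to 1235, 1327 and 2010 in *white* RNAi and to 2174, 3038 and 1827 in NSL2 RNAi, with 2 of 6 tested called. The muscle markers *Mhc*, *Act57B*, *Mlc2* and *Tm2* summed to 920 to 1218 and to 1502 to 2434, and 1 of the 4 was called, though all 4 were higher without the fold limit. Hemocyte markers *Hml* and *Pxn* did not pass the test, and of the neuronal markers *elav*, *nSyb*, *brp* and *Syt1* only *elav* was tested, at 51.6 to 56.3 normalized reads against 57.4 to 88.3. Of the fat body markers only 1 was tested, and it was called (log2FC 3.28) at a low level. These markers summed to 2, 3 and 1 in *white* RNAi and to 18, 54 and 12 in NSL2 RNAi. In whole ovaries, fewer cells of a type and less RNA per cell cannot be told apart.

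At an adjusted p below 0.05 and more than a 2-fold difference, 682 genes rose (8.48% of those tested) and 94 fell (1.17%), together 776 or 9.64%. Outside the eggshell and yolk lists these were 638 and 94. The libraries of the groups did not overlap for 679 of the 682 genes that rose and for all 94 that fell, nor for 3480 of the 7271 genes that were not called. The median log2FC over all tested genes was -0.04. Most of the called genes were of modest abundance: the median level of a risen gene was 92.4 normalized reads over the 6 libraries, against 1291 for an uncalled gene.

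*white* RNAi replicate 3 stood apart from replicates 1 and 2, toward NSL2 RNAi for most risen genes but not for most fallen genes. It was the highest *white* RNAi library for 503 of the 682 risen genes (73.8%), for 52 of the 94 fallen genes (55.3%) and for 2014 of the 7271 uncalled genes (27.7%). NSL2 RNAi replicate 2 was the highest of its group for 450 of the risen genes (66.0%) and for 27 of the fallen (28.7%). The mean log2 level of eggshell genes was 6.69, 7.44 and 9.52 in the *white* RNAi libraries and 12.16, 12.58 and 11.64 in the NSL2 RNAi libraries, so this level moved with many of the genes below. Its part in their change was not tested beyond a fit with the eggshell level as a covariate, in which 50 genes outside the eggshell and yolk lists were called, 34 higher and 16 lower. The groups do not overlap in eggshell level, so in that fit the group and the covariate cannot be fully told apart. Without *white* RNAi replicate 3, 736 genes rose and 78 fell. Below, both genes whose *white* RNAi libraries agreed closely and genes raised in replicate 3 as well are described, and the values of single libraries are given for most of them.

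**Figure D1:**
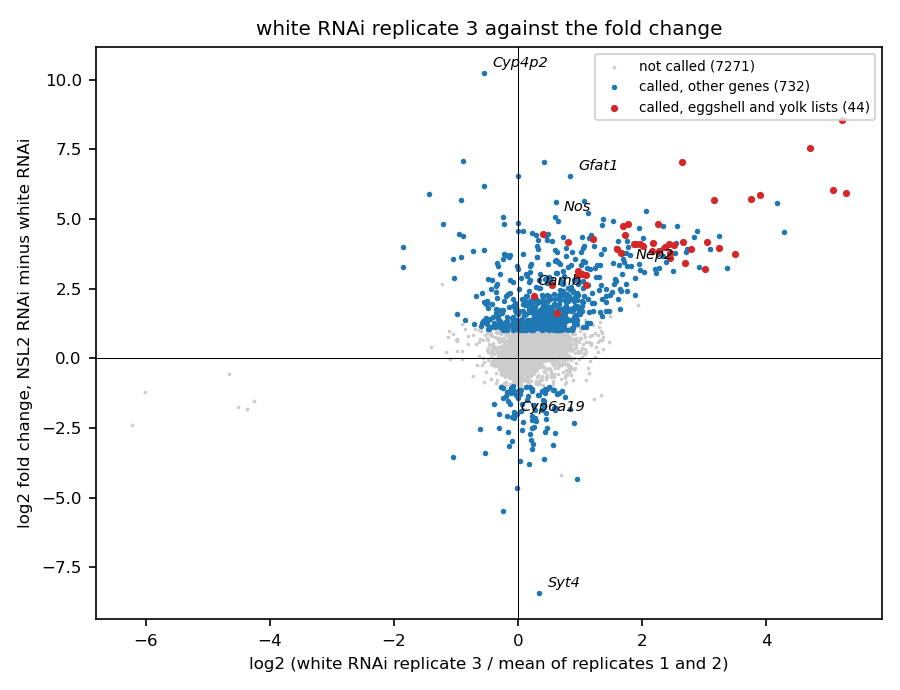
Each point is a tested gene, with the log2 ratio of *white* RNAi replicate 3 to the mean of replicates 1 and 2 on the x axis and the log2 fold change of NSL2 RNAi over *white* RNAi on the y axis. Called eggshell and yolk genes (red) lie mostly to the right, where *white* RNAi replicate 3 was raised as well. *Cyp4p2*, *Nos*, *Oamb*, *Gfat1*, *Syt4* and *Cyp6a19* lie within 1 of 0 on the x axis. That range still holds raised values, as for *Nos* at 0.60, against a median of 0.50 for all risen genes.

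The largest changes in genes of steady *white* RNAi level were switches from near 0. *Cyp4p2*, a cytochrome P450, had 1 read in the 3 *white* RNAi libraries together and 4131 in the NSL2 RNAi libraries. Normalized, it read 0.922, 0 and 0 against 1706, 1490 and 1338, a ratio of 4935 whose 95% counting interval runs from 885 to 194987. *CG10440* (now *twz*) had 2 reads against 540, and *CG14082* had 2 against 563, ratios of 323 (88.9 to 2670) and 336 (92.7 to 2784). These intervals cover counting error only. In the opposite direction, *Syt4*, a synaptotagmin of regulated secretion, had 1454 reads in *white* RNAi and 1 in NSL2 RNAi. These 4 were the genes with 3 reads or fewer in a group and at least 300 in the other.

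Enzymes of several pathways followed. *Gfat1*, which makes glucosamine-6-phosphate at the entry of the hexosamine pathway, read 1.84, 2.56 and 4.73 normalized reads in *white* RNAi and 403, 370 and 312 in NSL2 RNAi (log2FC 6.54, SE 0.30, adjusted p = 1.3e-05). *Nos*, the nitric oxide synthase and not the germline gene *nos*, read 4.61, 5.97 and 8.52 against 235, 265 and 224 (log2FC 5.07, SE 0.25, adjusted p = 1.8e-05). In both genes the *white* RNAi libraries stayed under 10 normalized reads, with replicate 3 the highest. *Men*, the malic enzyme that yields NADPH, rose from 3622 to 3784 to between 7074 and 8298 (log2FC 1.04, SE 0.07, adjusted p = 6.6e-05), and was just under the 2-fold limit without NSL2 RNAi replicate 3 (log2FC 0.97).

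Regulators were among the tightest changes. *Drep-1*, a relative of the apoptotic DNA fragmentation factor, read 228, 231 and 261 in *white* RNAi and 1785, 1553 and 1731 in NSL2 RNAi (log2FC 2.81, SE 0.09, adjusted p = 3.2e-06). *Sox102F*, an HMG-box transcription factor encoded on the small chromosome 4, read 44.3, 48.6 and 53.9 against 530, 508 and 522 (log2FC 3.39, SE 0.13, adjusted p = 5.5e-06). *nkd*, an inhibitor of Wnt signalling, read 59.7 to 71.9 against 527 to 658 (log2FC 3.09, SE 0.14, adjusted p = 1.2e-05). For all 3 the spread within a group was small beside the gap between the groups. *Drep-1* and *Sox102F* were picked among the 10 smallest adjusted p, a choice that favours a small spread. *CG32017*, also on chromosome 4, rose by a log2FC of 4.50 (SE 0.14, adjusted p = 3.2e-06) and *CG43134*, a gene of unknown role on the X, went from 2651, 2850 and 3023 to 19973, 23758 and 21655 normalized reads (log2FC 2.94, SE 0.08, adjusted p = 2.4e-06). *Gfat1*, *Nos*, *Men*, *Drep-1*, *Sox102F*, *nkd*, *CG32017* and *CG43134* were all called with the eggshell level as a covariate as well.

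**Figure D2:**
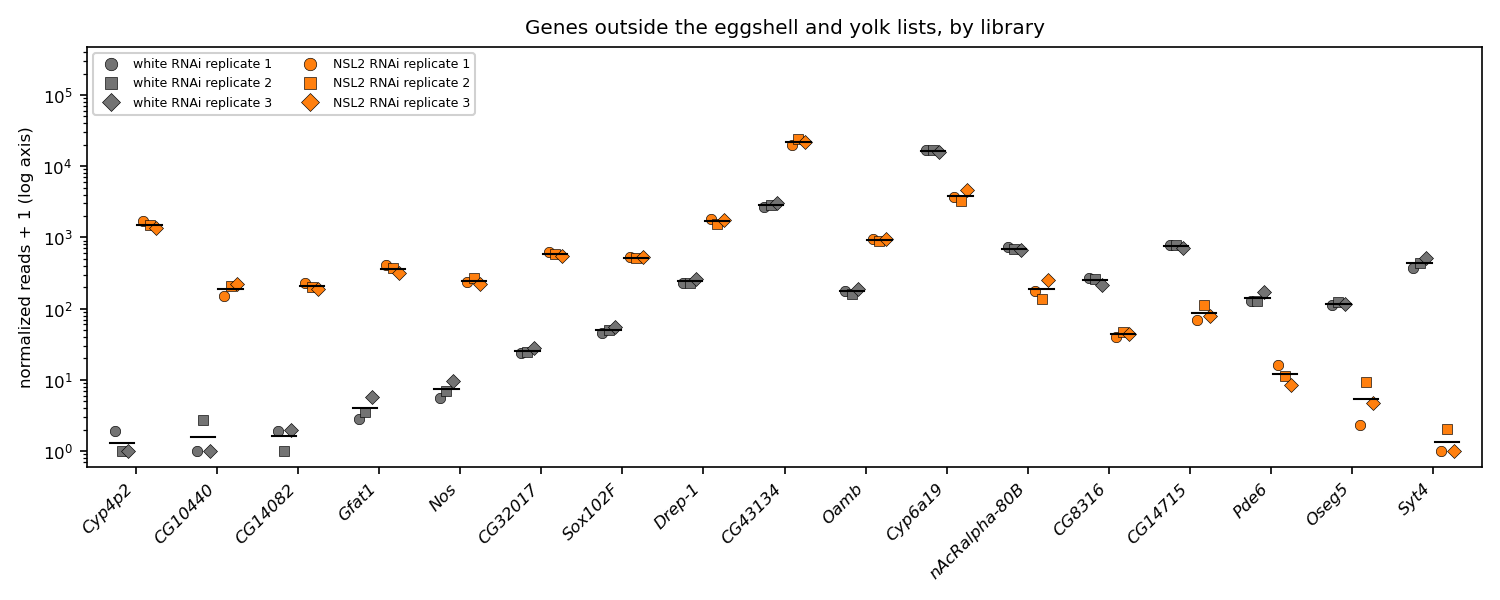
Normalized reads + 1 on a log axis for 17 genes outside the eggshell and yolk lists, in the 3 *white* RNAi (grey) and 3 NSL2 RNAi (orange) libraries, with group means as bars. Within each group the points nearly coincide for most genes, as for *Oamb* at 159 to 188 against 876 to 954, while the groups lie far apart.

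Ecdysteroids are made from cholesterol by a chain of enzymes that includes the Halloween genes, and the hormone acts through the receptor pair EcR and Usp on early response genes. In the list of ecdysone and juvenile hormone genes, 11 of 43 tested members rose and 0 fell, with a median log2FC of 0.18. Of all tested genes, 8.48% and 1.17% did so. *ImpL3* (now *Ldh*), described below with its chromosomal neighbours, is counted among the 11. Genes of the synthesis chain rose together. *spo* read 79.3, 86.1 and 115 in *white* RNAi and 339, 795 and 342 in NSL2 RNAi (log2FC 2.28, SE 0.33, adjusted p = 0.0024). *sad* read 30.4, 31.6 and 46.4 against 106, 167 and 92.2 (log2FC 1.70, SE 0.28, adjusted p = 0.0040). *shd*, which makes the active hormone 20-hydroxyecdysone, read 10.1, 8.53 and 26.5 against 43.4, 95.5 and 43.3 (log2FC 2.01, SE 0.48, adjusted p = 0.018). In each of these 3 genes the groups did not overlap, replicate 3 was the highest *white* RNAi library and replicate 2 the highest NSL2 RNAi library. *sro* (log2FC 1.53, adjusted p = 0.016) and *dib* (1.26, 0.013) were called too. Of the other members of the chain, *nvd* had a log2FC of 0.73 (adjusted p = 0.022), under the 2-fold limit, *phm* one of 1.02 (adjusted p = 0.065), and *spok*, a close relative of *spo*, was under the minimum for testing at 0 to 0.946 normalized reads against 9.49 to 27.7. *sad*, *sro*, *dib*, *nvd*, *phm* and *spok* were added to complete the chain after values were seen.

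The receptor genes did not rise. *EcR* read 1632 to 2066 in *white* RNAi and 1672 to 1834 in NSL2 RNAi, overlapping ranges (log2FC -0.04, adjusted p = 0.74), and *usp* was lower without reaching the fold limit (log2FC -0.31, adjusted p = 0.016). Of the nuclear receptors and transcription factors that answer the hormone, *Hr46* (now *Hr3*) read 5.53, 5.97 and 9.46 against 119, 182 and 57.4 (log2FC 3.80, SE 0.43, adjusted p = 0.00085). *Eip74EF* read 36.9, 43.5 and 95.6 against 251, 267 and 143 (log2FC 1.97, SE 0.38, adjusted p = 0.0083), and *Eip78C* read 6.45 to 11.4 against 36.7 to 40.7 (log2FC 1.95, SE 0.30, adjusted p = 0.0032). Not all response genes rose: *Eip75B* read 628 to 846 against 590 to 1058 (log2FC 0.18, adjusted p = 0.52), and the groups overlapped. *ImpL2*, a secreted binding protein of insulin-like peptides that ecdysone induces, rose by a log2FC of 1.46 (adjusted p = 0.0027). *Eip75B* and *EcR* were likewise named after their values were seen. Without *white* RNAi replicate 3, 12 list members rose. Without NSL2 RNAi replicate 2, the library highest for the synthesis genes, 7 members were called, and with the eggshell level as a covariate 0 were higher and 2 lower. The calls of *shd* and *sro* ended without *white* RNAi replicate 1 (adjusted p = 0.060 and 0.055) or 2 (0.065 and 0.054), and those of *shd* (0.054) and *dib* (log2FC 0.98) without NSL2 RNAi replicate 2.

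**Figure D3:**
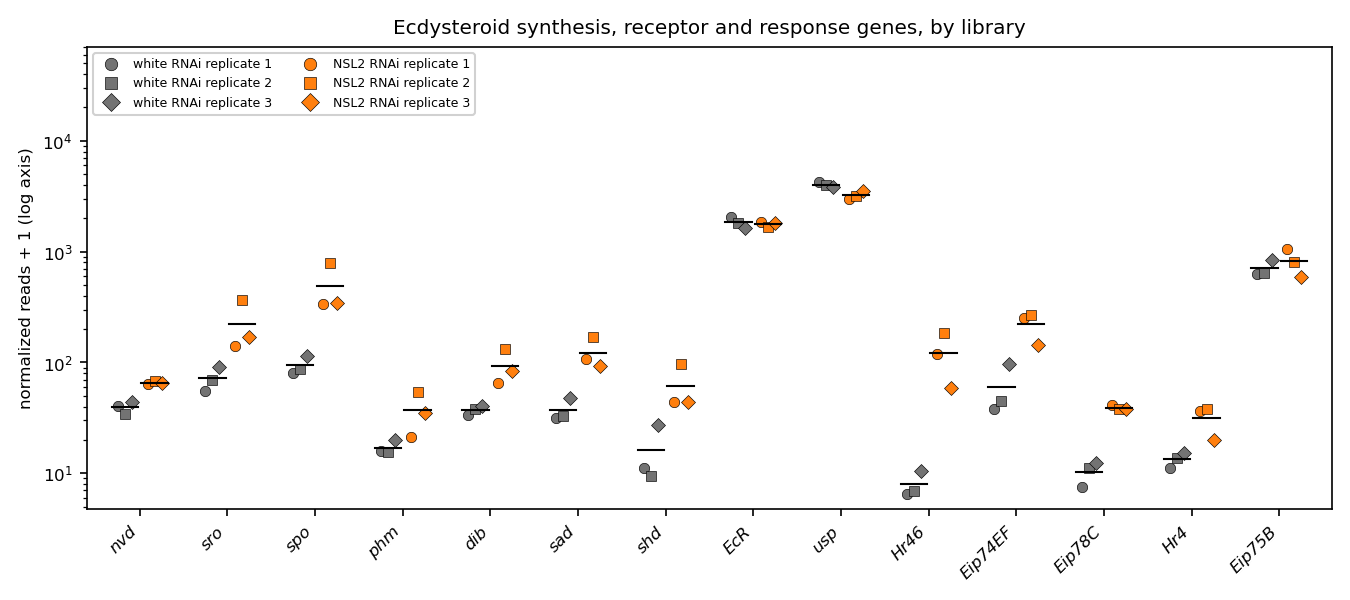
Normalized reads + 1 on a log axis for genes of ecdysteroid synthesis (*nvd* to *shd*), the receptor (*EcR*, *usp*) and the response (*Hr46* to *Eip75B*) in each library, with group means as bars. The synthesis and most response genes lie higher in NSL2 RNAi (orange), with replicate 2 (squares) on top for synthesis, while *EcR*, *usp* and *Eip75B* lie at similar levels in both groups.

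Ovulation needs octopamine signalling to the mature follicle, and the follicle then ruptures by matrix metalloprotease activity. Of 32 tested genes of late follicle cells and ovulation, 10 rose and 0 fell (median log2FC 0.33), beside 8.48% and 1.17% of all tested genes. *Oamb*, the octopamine receptor of mature follicle cells, read 174, 159 and 188 in *white* RNAi and 937, 876 and 954 in NSL2 RNAi (log2FC 2.40, SE 0.10, adjusted p = 7.9e-06). *Nox*, an NADPH oxidase, read 681, 666 and 745 against 1722, 1951 and 1623 (log2FC 1.34, SE 0.09, adjusted p = 6.0e-05). Both genes differed little within groups, with *white* RNAi replicate 3 slightly above the other *white* RNAi libraries. *bond*, an elongase of very long chain fatty acids, varied more, reading 148, 145 and 267 against 746, 1984 and 778 (log2FC 2.54, SE 0.40, adjusted p = 0.0033). *slbo*, the C/EBP factor of border cells (log2FC 2.51), *bib*, a membrane protein of the Notch pathway in neurogenesis (2.52), and *tj*, a Maf factor of ovarian somatic cells (1.05), rose as well. *Oamb* alone of the list was called with the eggshell level as a covariate, and 11 members rose without *white* RNAi replicate 3. The call of *tj* ended without *white* RNAi replicate 1 or 2 or NSL2 RNAi replicate 2 (adjusted p = 0.077, 0.084 and 0.059).

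Proteases and inhibitors that act outside the cell rose in the same libraries. Of 17 tested metalloproteases and matrix remodelling genes, 7 rose and 0 fell, with a median log2FC of 0.85. Of all tested genes 8.48% rose and 1.17% fell. The uncalled *Adam* (now *eIF3j*, a translation initiation factor) is counted among the 17 under its older name. *Mmp1* read 18.4, 19.6 and 25.6 in *white* RNAi and 90.9, 103 and 61.2 in NSL2 RNAi (log2FC 1.93, SE 0.26, adjusted p = 0.0019), and *Reck*, named for its inhibition of such proteases in mammals, read 67.3 to 85.3 against 173 to 209 (log2FC 1.29, SE 0.16, adjusted p = 0.0011). The neprilysin *Nep2*, a peptidase, read 99.6, 163 and 448 against 1786, 2740 and 1521 (log2FC 3.33, SE 0.49, adjusted p = 0.0027), and *tok*, a tolloid-like protease, rose by a log2FC of 3.21 (adjusted p = 0.0011). Replicate 3 was highest in *white* RNAi for *Nep2* and *Mmp1* but not for *Reck*. *Mmp2* (log2FC 0.88, adjusted p = 0.039) and its inhibitor *Timp* (0.85, 0.043), both named after their values were seen, stayed under the fold limit. Without *white* RNAi replicate 3, 9 of the list rose, without NSL2 RNAi replicate 2, 4 were called, and with the eggshell covariate 0 were called.

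Apical matrix genes formed a further group. Of 187 listed cuticle and chitin genes only 22 reached the minimum for testing, and of these 12 rose and 0 fell (median log2FC 1.31). Of all tested genes 8.48% rose and 1.17% fell. The minimum is a mean over both groups, so members near 0 in *white* RNAi were tested only if high in NSL2 RNAi. The count and the median of the list therefore cannot be read against all tested genes alone. 2 of the 12 are also in the eggshell list and are not described further. *Cht3* (now *Cht10*), a chitinase, read 107, 109 and 133 in *white* RNAi and 1480, 1213 and 1665 in NSL2 RNAi (log2FC 3.62, SE 0.14, adjusted p = 7.3e-06). The mucin *Muc12Ea* read 47.0, 31.6 and 84.2 against 700, 519 and 498 (log2FC 3.47, SE 0.33, adjusted p = 0.00037), and *knk*, which organizes chitin in the cuticle, read 5.97 to 13.2 against 80.9 to 113 (log2FC 3.29, SE 0.32, adjusted p = 0.00043). *Cht3* differed from the other members in that it was called with the eggshell covariate, the only one of the list.

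Cytochrome P450 enzymes oxidize hormones and foreign compounds, and ABC transporters export many of the products. P450 genes changed in both directions: of 45 tested, 10 rose and 6 fell (median log2FC 0.30), beside 8.48% and 1.17% of all tested genes. The 45 include *Cyp1*, a cyclophilin and not a P450, which was not called. Besides *Cyp4p2*, its relatives *Cyp4p1* (1.84, 3.41 and 2.84 normalized reads against 92.2, 89.4 and 74.3, log2FC 4.56, adjusted p = 6.8e-05) and *Cyp4p3* (0.922, 1.71 and 3.79 against 50.2, 46.2 and 38.6, log2FC 3.97, adjusted p = 0.00064) rose. *Cyp12a4*, a mitochondrial P450, rose from 11.4 to 28.1 to between 362 and 531 (log2FC 4.46, adjusted p = 0.00010), and *Cyp4s3* from 160 to 259 to between 1171 and 1341 (log2FC 2.62, adjusted p = 5.6e-05). The most abundant of the genes that fell was *Cyp6a19*, which read 16683, 16932 and 15703 in *white* RNAi and 3715, 3286 and 4567 in NSL2 RNAi (log2FC -2.10, SE 0.11, adjusted p = 2.3e-05). *Cyp6d4* fell as well, from 343, 400 and 466 to 138, 157 and 192 (log2FC -1.31, adjusted p = 0.0013, named after its values were seen). Without *white* RNAi replicate 3, 9 rose and 3 fell, and *Cyp4p2*, *Cyp12a4* and *Cyp6a19* were called with the eggshell covariate.

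Of 40 ABC transporters tested, 11 rose and 1 fell, beside 8.48% and 1.17% of all tested genes. The 11 include *w*, the target of the control hairpin (log2FC 3.52, SE 0.17, adjusted p = 1.5e-05). A difference in *w* was set by the design, so its call cannot be read as a response to NSL2 RNAi. *Sur*, a sulfonylurea receptor relative, read 28.6, 65.7 and 88.0 against 281, 378 and 238 (log2FC 2.39, adjusted p = 0.0039). *CG33970* (now *osy*) rose by a log2FC of 2.68 (adjusted p = 0.0025). The member that fell was *CG4562* (now *Mrp5*), a multidrug resistance protein relative, from 2697, 2689 and 2422 to 1128, 1068 and 1173 (log2FC -1.21, SE 0.07, adjusted p = 2.7e-05). With the eggshell covariate 2 members were called, and 1 of these was *w*, for which the same limit holds. The median log2FC of the list was -0.02.

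Changed genes often lay beside each other. With the order of genes taken from the release 6 annotation, 224 of 674 risen genes with a position (33.2%) had a risen gene as a direct neighbour among tested genes, while 15.7% of all tested genes had one. For the fallen genes it was 14 of 90 (15.6%), against 2.3% of all tested genes. Eggshell and yolk genes are counted in the shares of risen genes, and no share was computed without them. In some runs of risen neighbours a gene overlaps the one before it, as in the run that holds *Nos*. Of 32 runs of at least 3 risen neighbours, 23 held no eggshell or yolk gene. *CG43134* lay in a run of 7 that held 4. On 2R, *Cyp4p2*, *Cyp4p1* and *Cyp4p3* stood next to each other, and the nearest tested genes on either side, *VhaAC45* and *CG30343*, were not called (adjusted p = 0.98 and 0.82). On 3L a run of 7 risen genes held *pncr008:3L*, *CG13299*, the ABC transporters *CG10226* and *Mdr65*, the chloride channel gene *Best2*, *CG10163* and *ImpL3* (now *Ldh*, lactate dehydrogenase). *Best2* read 596, 706 and 768 against 1497, 1896 and 1677 (log2FC 1.29, adjusted p = 0.00032), and *Mdr65* 13.8 to 22.7 against 57.0 to 79.1 (log2FC 1.74, adjusted p = 0.0033). The *Cyp6a* cluster of 2R was mixed instead: *Cyp6a23* (log2FC -1.25) and *Cyp6a19* (-2.10) fell, the next gene *Cyp6a9* had a log2FC of 0.09 (adjusted p = 0.68), and *Cyp6a20* (1.01) and *Cyp317a1* (1.89) rose. *ImpL3* was not called without any 1 of the *white* RNAi libraries (adjusted p = 0.065 to 0.11) and *Cyp6a20* without any 1 of the 6 (0.060 to 0.15). These runs were picked after their values were seen. Reads shared between close copies of a family could not be told apart from these counts.

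**Figure D4:**
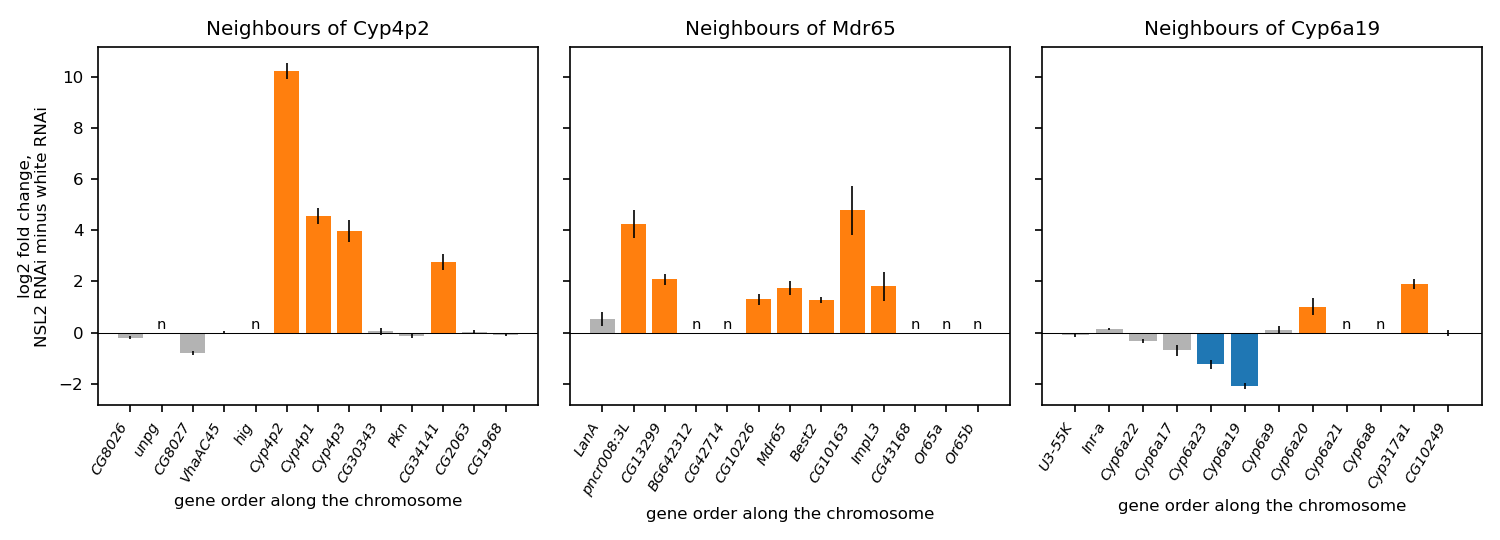
Log2 fold change of NSL2 RNAi over *white* RNAi, with the standard error, for genes in chromosomal order around *Cyp4p2*, *Mdr65* and *Cyp6a19*. Orange bars rose, blue bars fell, grey bars were not called and n marks genes under the minimum for testing. The 3 *Cyp4p* genes rise side by side, with *CG34141* also risen further along and the other tested genes of that window uncalled, the run around *Mdr65* rises as a block, and the *Cyp6a* cluster holds falling, flat and rising genes side by side.

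Single genes for receptors, channels, transporters and adhesion rose, several from low levels. Of 35 tested G-protein coupled receptor and neuropeptide genes, 7 rose (20%) and 1 fell (2.86%), beside 8.48% and 1.17% of all tested genes (median log2FC 0.12). Next to *Oamb*, *rk*, the receptor of the tanning hormone bursicon, read 5.53, 5.12 and 14.2 in *white* RNAi and 103, 88.3 and 69.6 in NSL2 RNAi (log2FC 3.36, SE 0.39, adjusted p = 0.00095). *Tdc1*, a tyrosine decarboxylase on the path to tyramine and octopamine, read 9.22 to 21.3 against 75.9, 95.5 and 57.4 (log2FC 2.24, adjusted p = 0.0033). *Tdc1* and *ple* (log2FC 2.89) encode enzymes and are counted among the 7. *Dh44-R2*, a receptor of a diuretic hormone, fell from 50.7, 65.7 and 68.1 to 6.78, 5.14 and 4.71 (log2FC -3.26, SE 0.28, adjusted p = 0.00026). Of 107 listed ion channels 38 were tested, of which 9 rose (23.7%) and 1 fell (2.63%). The 35 receptor and neuropeptide genes were those tested of 119 listed. The minimum for testing is a mean over both groups, so genes near 0 in *white* RNAi were tested only if high in NSL2 RNAi. Of 948 tested genes with a mean under 50, 262 rose. The shares of these lists, and of other lists with members of few reads, therefore cannot be read against 8.48% alone. 2 nicotinic acetylcholine receptor subunits went opposite ways: *nAcRalpha-96Aa* rose from 0, 0 and 1.89 to 31.2, 53.4 and 46.1 (adjusted p = 0.00069), and *nAcRalpha-80B* fell from 721, 681 and 673 to 174, 135 and 253 (log2FC -1.93, SE 0.21, adjusted p = 0.00066).

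Of 68 tested solute carriers, 8 rose (11.8%) and 0 fell, near the 8.48% of all tested genes that rose. *Ncc69*, a sodium potassium chloride cotransporter, read 709, 658 and 717 in *white* RNAi and 1644, 1625 and 1503 in NSL2 RNAi (log2FC 1.19, SE 0.07, adjusted p = 3.5e-05, named after its values were seen). The glutamate transporter *Eaat1* rose to between 108 and 127 (log2FC 3.07, adjusted p = 0.0052), and *Mco1*, a multicopper oxidase kept in the same list, rose by a log2FC of 3.38 (adjusted p = 0.00085). Of 87 tested adhesion and junction genes, 13 rose (14.9%) and 0 fell (median log2FC 0.15), 1 of the 13 also in the eggshell list. *Cad74A*, a cadherin of the follicular epithelium, read 352, 386 and 881 against 4353, 4845 and 2533 (log2FC 2.93, SE 0.37, adjusted p = 0.0013). *dpr16*, a cell surface immunoglobulin protein, read 153, 103 and 117 against 863, 785 and 946 (log2FC 2.80, SE 0.16, adjusted p = 2.8e-05), and *Dscam2* rose from 0.922, 2.56 and 2.84 to 66.5, 62.7 and 63.1 (log2FC 4.45, adjusted p = 0.00021). *Cad74A* was raised in *white* RNAi replicate 3, while *dpr16* and *Dscam2* had replicate 3 close to replicate 2.

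The genes that fell had varied functions. *CG8316* (now *corolla*), a component of the synaptonemal complex that holds paired chromosomes together in meiosis, read 269, 260 and 215 in *white* RNAi and 39.3, 46.2 and 42.4 in NSL2 RNAi (log2FC -2.51, SE 0.16, adjusted p = 5.4e-05). Among 52 tested genes of DNA repair and meiotic recombination, 1 fell (*CG8316*) and 1 rose, beside 1.17% and 8.48% of all tested genes. The fall thus describes this gene and not the list. *dhd*, the thioredoxin of the egg, was the most abundant gene that fell, from 75966, 78614 and 73717 to 36117, 29648 and 34416, and the egg activation kinase *png* fell from 1892, 1872 and 1714 to 765, 711 and 977. *Oseg5*, an intraflagellar transport protein, fell from 111, 124 and 115 to 1.36, 8.22 and 3.76 (log2FC -4.65, SE 0.47, adjusted p = 0.00053). *unc*, needed for cilia of sensory neurons and for sperm, fell from 78.5 to 107 to between 10.8 and 15.1 (log2FC -2.64, adjusted p = 0.00033). *Pde6*, a cGMP phosphodiesterase, fell from 126, 125 and 169 to 14.9, 10.3 and 7.53 (log2FC -3.60, SE 0.29, adjusted p = 0.00018). The ionotropic receptor *Ir76a* (log2FC -2.73) and *Snmp1*, a membrane protein of olfactory neurons (-2.54), fell as well. The groups overlapped for none of the 94 fallen genes, and the largest falls were picked on that condition, so it sets none of these genes apart. Chemosensory genes as a list did not go one way. Of 279 listed only 16 were tested, and 6 rose (37.5%) and 3 fell (18.8%), with a median log2FC of 0.12. Of all tested genes 8.48% rose and 1.17% fell. Members with few reads in a group passed the minimum for testing only if high in the other group. The shares of the list therefore cannot be read against those of all tested genes alone. The list was filled in part by gene names, and *Osi19* (log2FC 4.12), an Osiris gene, is counted among the 6. *Ir7c*, another ionotropic receptor gene, rose from 15.7, 11.1 and 58.7 to 895, 1352 and 573 (log2FC 5.27, adjusted p = 0.00069), and *Obp19c*, an odorant-binding protein gene, from 59.9, 120 and 862 to 3532, 5815 and 2797 (log2FC 4.38, adjusted p = 0.0082). In both, *white* RNAi replicate 3 was the highest of its group.

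Several enzymes fell as well. *SP1029*, an aminopeptidase, fell from 2248, 2108 and 2252 to 650, 433 and 713 (log2FC -1.91, SE 0.17, adjusted p = 0.00028). The carboxylesterase *alpha-Est1* fell from 1361, 1295 and 1610 to 353, 346 and 499 (log2FC -1.84, SE 0.15, adjusted p = 0.00021). *proPO59* (now *PPO3*), a prophenoloxidase, fell from 87.6 to 102 to between 4.07 and 22.6 (log2FC -2.93, SE 0.52, adjusted p = 0.0057). *CG14715* and *CG11034*, of which no role is given here, fell with log2FC values of -3.15 and -2.98, and both were called with the eggshell covariate.

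Below the 2-fold limit, whole lists shifted a little. Without a fold minimum, 16.1% of tested genes were higher and 18.6% lower. Of 75 tested genes of DNA replication and the cell cycle, 43 were lower, 0 were higher and 0 passed the 2-fold limit (median log2FC -0.29). The centromere protein gene *Cenp-C* read 5607, 5650 and 5490 in *white* RNAi and 4044, 3061 and 3751 in NSL2 RNAi (log2FC -0.63, SE 0.10, adjusted p = 0.0031), the lowest value of the list. Of 82 chromatin and Polycomb regulators 35 were lower and 1 higher (median -0.23), and of 57 nurse cell and oocyte genes 24 were lower and 4 higher (median -0.22). Mitochondrial genes leaned the other way: 25 of 74 tested mitochondrial ribosomal proteins were higher and 0 lower (median 0.14), and 32 of 96 genes of the TCA cycle and oxidative phosphorylation were higher and 4 lower (median 0.14). *mRpL36* led its list at 349, 302 and 322 against 430, 535 and 468 (log2FC 0.55, SE 0.11, adjusted p = 0.0096). *Cenp-C* and *mRpL36* were named after their values were seen. These counts rest on small differences: the lower replication genes numbered 10 without *white* RNAi replicate 1 and 9 without replicate 2, and the higher mitochondrial ribosomal genes 11, 7 and 12 without *white* RNAi replicates 1, 2 and 3 and 10 without NSL2 RNAi replicate 2. The medians kept their sign in those fits and under both other scalings.

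**Figure D5:**
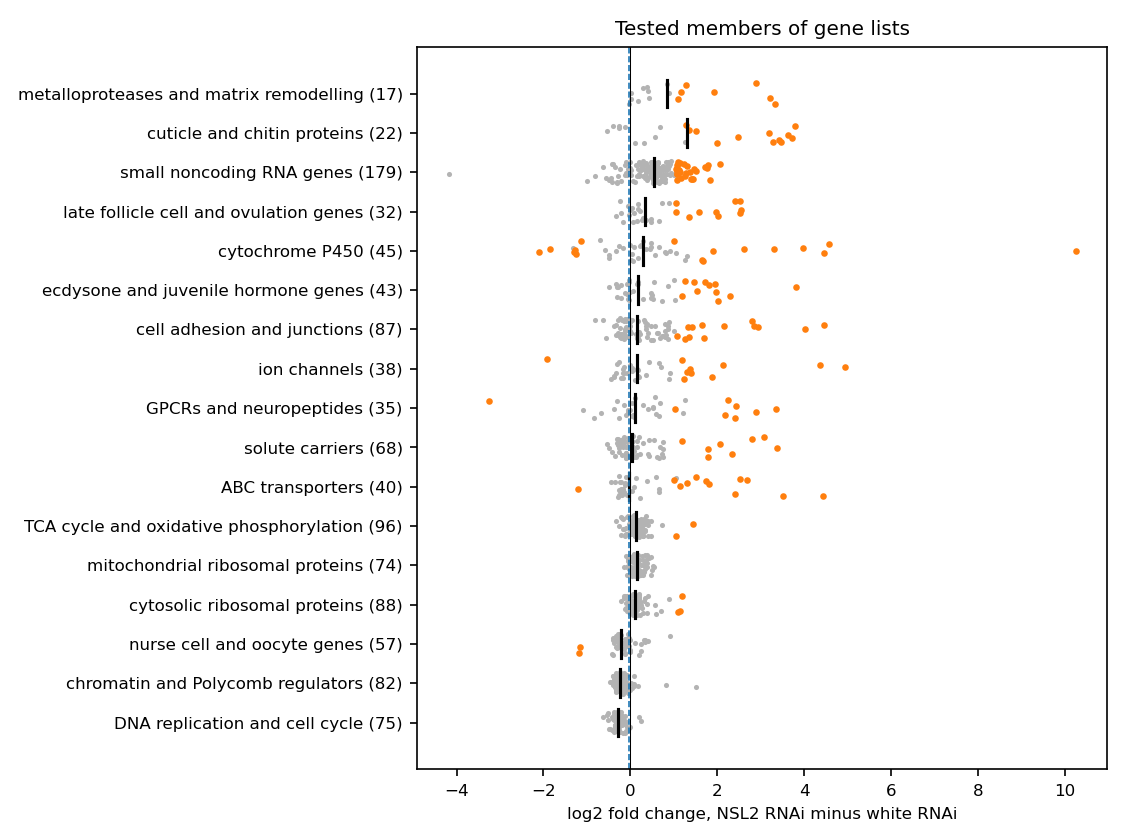
Log2 fold change of every tested member of 17 gene lists (number tested in brackets), with called members in orange, the list median as a black bar and the median of all tested genes as a dashed blue line. Matrix, cuticle, small RNA, ovulation and ecdysone lists spread to the right, and the P450 list has called members on both sides. Replication, chromatin and nurse cell lists lie slightly left of 0 with few or no called members.

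Because the libraries were made without poly(A) selection, small noncoding RNAs could be counted as far as fragments of them were kept. Of 179 tested small noncoding RNA genes, 27 rose and 0 fell (median log2FC 0.54), beside 8.48% and 1.17% of all tested genes. *snoRNA:Psi28S-2949*, a guide of pseudouridylation in 28S ribosomal RNA, read 142, 117 and 170 in *white* RNAi and 631, 578 and 562 in NSL2 RNAi (log2FC 2.05, SE 0.15, adjusted p = 0.00010). *snRNA:U11*, a part of the minor spliceosome, read 5704, 5147 and 5111 against 10909, 11459 and 12958 (log2FC 1.14, SE 0.08, adjusted p = 8.2e-05), and *snoRNA:U3:9B*, which acts in ribosomal RNA cleavage, read 8143 to 10706 against 16888 to 22010 (log2FC 1.07, adjusted p = 0.0011). Both were named after their values were seen, and the log2FC of *snoRNA:U3:9B* was 0.96 without *white* RNAi replicate 2 and just under 1 without NSL2 RNAi replicate 2. The median ratio of *white* RNAi replicate 3 to the other libraries was 0.55 (log2) over this list, as large as its median change, and 38 members rose without that library, 9 were called without *white* RNAi replicate 2 and 15 without *white* RNAi replicate 1 or NSL2 RNAi replicate 1.

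Of 88 tested cytosolic ribosomal protein genes 3 rose and 0 fell, while without the fold limit 18 were higher and 1 lower. Of all tested genes 8.48% rose and 1.17% fell, and without the fold limit 16.1% were higher and 18.6% lower. Among the uncalled, *sta* read 27926, 26509 and 34883 in *white* RNAi and 48608, 62784 and 54337 in NSL2 RNAi (log2FC 0.89, adjusted p = 0.0028). *RpS2* read 19286, 17568 and 22063 in *white* RNAi and 36602, 52414 and 46285 in NSL2 RNAi (log2FC 1.19, SE 0.14, adjusted p = 0.0010). *RpLP0* read 18162, 17784 and 23048 against 37793, 49376 and 43434 (log2FC 1.15, SE 0.13, adjusted p = 0.00085). The third, *RpS19b*, a copy with low level here, rose by a log2FC of 1.09 (adjusted p = 0.036), a call that ended without any 1 library except NSL2 RNAi replicate 1 (adjusted p = 0.053 to 0.11). *RpL32*, shown as a gene often used for reference, read 15212 to 16991 against 16710 to 18623 (log2FC 0.12, adjusted p = 0.22), and the median of the list was 0.10. The long noncoding RNA *CR34335* rose from 19192, 19564 and 28431 to 40949, 51930 and 47422 (log2FC 1.08, SE 0.16, adjusted p = 0.0029), and by 0.98 and 0.99 without *white* RNAi replicates 1 and 2, under the 2-fold limit.

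The tables of NSL1 RNAi and NSL3 RNAi hold the same *white* RNAi libraries, were scaled separately and were fitted alone, so their values are given side by side without a test between them. The *white* RNAi columns of those tables carry the label of the ordinary ovaries and hold the same reads as in the NSL2 table, although the methods name virgin *white* RNAi ovaries as the reference of NSL1 and NSL3 RNAi, whose ovaries were rudimentary. Markers of other tissues moved in those tables: the 4 muscle markers had median log2FC values of 6.95 and 7.56 in NSL1 and NSL3 RNAi against 0.81 in NSL2 RNAi, and the hemocyte markers *Hml* and *Pxn* 7.56 and 8.90 against -0.27. Their part in the values below was not tested. The paper lists NSL1 RNAi as a TRiP hairpin at attP40 in a y1 v1 background, like that of NSL2 RNAi. It lists NSL3 RNAi as a VDRC line in a w1118 background. Where NSL1 and NSL2 RNAi are alike, the knockdowns and the shared line background cannot be told apart. In the NSL1 and NSL3 tables, 31.8% and 29.6% of tested genes rose and 20.4% and 14.6% fell. *Drep-1* had log2FC values of 2.81, 2.23 and 2.41 in NSL2, NSL1 and NSL3 RNAi, and *Gfat1* 6.54, 6.70 and 5.09. *Oamb* had 2.40, 2.18 and 3.61. *Cyp4p2* had 10.24 and 9.63 in NSL2 and NSL1 RNAi and did not reach the minimum for testing in the NSL3 table. Some genes had opposite signs: *Pde6* had -3.60 in NSL2 RNAi against 1.07 and 1.91, *Snmp1* -2.54 against 2.15 and 2.74, and *Dh44-R2* -3.26 against 0.83 and 2.95, all with adjusted p below 0.05 in their own table. Among the ecdysteroid genes *spo* had 2.28, 2.25 and -0.01, *dib* 1.26, 0.33 and -0.55, and *Hr46* 3.80, 4.14 and 4.77.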

How the data were processed

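Ovary total RNA was sequenced after depletion of ribosomal RNA. The signal values the authors deposited are normalized reads: according to the methods, reads were aligned with STAR inside piPipes to dm3, assigned with featureCounts or eXpress and analysed with DESeq2, with size factors taken from ERCC spike-in RNA; versions and the strand setting are not given in the sources used here. 100% of nonzero values came out as whole reads (relative tolerance 1e-06), 0 library columns went unused, and the authors' own fold changes and p-values were not used. The GEO labels number replicate 1 alone; the other columns were read as the further crosses the methods describe. If they were technical, the p-values measure only that spread.

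limma 3.58.1 with a mean-variance trend was fitted to log2(value + 1) of 8259 features with a mean of at least 10, 8047 of them genes, with Benjamini-Hochberg adjustment over all features. Genes were called at an adjusted p under 0.05 together with a change of more than 2-fold in either direction. edgeR 4.0.16 and DESeq2 1.42.0 on whole reads, other scalings, pseudocounts of 0.5 and 5, other filters, a 1.5-fold limma treat test, an eggshell covariate, a replicate block and leaving out each library were alternatives, and the fit was checked on simulated data. Against few reads, ratios carry exact 95% counting intervals. Gene names and order came from RefSeq release 6 (15061 of 15342 genes matched), without coordinates.

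The members and gene lists were chosen with earlier results of these data known, and the eggshell list was extended after seeing values. Named genes are, by rule, the hairpin targets; the 15 largest rises and falls with a mean of at least 50 and no overlap; the 10 largest gains and losses in reads and the 10 smallest adjusted p; up to 6 called and 3 uncalled members of each list; and genes with 3 reads or fewer in a group and at least 300 in the other. Others are said to be named after seeing values. Cell type markers named in the opening were fixed in the design. 1 gene is not reported here.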

Additional observations from a re-analysis of the deposited data

How the results depend on the processing

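The 94 called genes named in the text kept their direction under each alternative in which they were tested (76 of them at a minimum mean of 50, and 91 to 93 without an NSL2 RNAi library) except the eggshell covariate, where 22 stayed called, 64 were no longer called and 8 reversed: *CG10163* to -0.13, *Eip74EF* to -0.31, *shd* to -0.45, *tj* to -0.38, *CG3523* to -0.26, *NLaz* to -0.53, *PGRP-SB1* to -0.99 and *Obp19c* to -1.27. Outside the eggshell and yolk lists that fit called 50 genes, 34 that rose and 16 that fell, with 2 ecdysone, 1 late follicle, 0 metalloprotease, 1 cuticle, 3 P450, 2 ABC, 1 adhesion, 0 channel, 1 GPCR, 0 solute carrier, 2 small noncoding and 0 nurse cell genes, 0 lower replication genes and 0 higher mitochondrial ribosomal genes. A minimum mean of 50 left 479 calls (416 rose), with 7 ecdysone, 10 P450 and 2 GPCR genes. Without a filter 17 channels and 15 GPCRs were called. The 1.5-fold treat test left 440 calls (376 rose), with 5 ecdysone, 5 late follicle, 6 channel, 5 GPCR, 5 solute carrier and 7 small noncoding genes, 0 replication and 0 mitochondrial ribosomal genes. Without a fold minimum 2794 genes passed (1299 higher, 1495 lower), with 25 ecdysone, 26 ABC, 33 adhesion, 13 GPCR, 29 solute carrier, 49 small noncoding and 28 nurse cell genes. edgeR called 796 genes and DESeq2 764, and 768 and 739 of the 776 were shared. Apart from what the setting itself removes, such as genes under a higher minimum, the cause of these differences was not tested.

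Leaving out 1 library in turn gave 599 to 814 calls, 512 to 736 that rose and 76 to 103 that fell. The lists ranged over 7 to 12 ecdysone genes, 4 to 9 metalloproteases, 5 to 10 GPCRs, 9 to 38 small noncoding genes, 9 to 47 lower replication genes and 7 to 22 higher mitochondrial ribosomal genes. Named genes whose calls ended are given with their values where they are described.

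Deviations from the group means of same-numbered libraries correlated at 0.08, -0.02 and -0.44, so the numbers do not pair the libraries. With the replicate number as a block, 726 genes were called (637 rose, 89 fell), *Cyp6a20* and *RpS19b* lost their calls, and 27 replication genes were lower and 9 mitochondrial ribosomal genes higher. With 3 libraries a group, differences in genes of few reads were limited by depth.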

Other observations

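Of 49 tested immune genes, 6 rose (12.2%) and 1 fell (2.04%), shares near the 8.48% and 1.17% of all tested genes, with a median log2FC of 0.02. *PGRP-SB1*, a secreted peptidoglycan recognition protein, read 0, 0.853 and 5.68 in *white* RNAi and 17.6, 25.7 and 13.2 in NSL2 RNAi (adjusted p = 0.016 by limma), while the antibacterial peptide gene *Dpt* read 27.7, 46.9 and 25.6 against 6.78, 3.08 and 0 (adjusted p = 0.012). In neither gene did the groups overlap, and both calls ended without *white* RNAi replicate 2 (adjusted p = 0.057 for *PGRP-SB1* and 0.054 for *Dpt*).

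Of 66 tested genes of lipid synthesis, storage and transport, 6 rose (9.09%) and 0 fell (median log2FC 0.03), again near the shares of all tested genes. *CG3523* (now *FASN1*, fatty acid synthase) read 2880, 3129 and 4935 against 9697, 9909 and 5538 (log2FC 1.19, SE 0.27, adjusted p = 0.013), and *NLaz*, a lipocalin, read 13.8, 12.8 and 68.1 against 274, 301 and 141 (log2FC 3.23, SE 0.61, adjusted p = 0.0074). In both genes *white* RNAi replicate 3 lay highest of its group and NSL2 RNAi replicate 3 lowest. Without *white* RNAi replicate 2, *CG3523* was not called (adjusted p = 0.053).

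*Dcr-2*, named after its values were seen, read 5743, 6005 and 6363 against 15405, 10226 and 12638 (log2FC 1.06, SE 0.13, adjusted p = 0.0013), and had a log2FC of 0.91 without NSL2 RNAi replicate 1. Both groups carried the UAS-Dcr-2 transgene, and reads of the gene and of the transgene cannot be told apart. The share of tested genes that rose was 8.73% on 2L, 8.38% on 2R, 8.25% on 3L, 8.70% on 3R, 8.21% on X and 11.3% on chromosome 4, where 8 of 71 rose and 2 fell. Among 62 tested long noncoding RNA genes 12 rose (19.4%) and 1 fell, beside 8.48% and 1.17% of all tested genes.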
